A study of Mus musculus with 12 samples.

Results

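The genes described here are 8 markers and mediators of alternative macrophage activation: *Retnla*, *Chil3*, *Mrc1*, *Mgl2*, *Clec10a*, *Irf4*, *Stat6* and *Il4ra*. They were found by symbol in a table of RNA-seq read counts with 54532 genes, and all 8 were listed and were among the 14894 genes tested. *Retnla*, *Chil3* and *Mrc1* were selected on their measured fold changes between these groups, and the other 5 genes were added with results of these data known. The fold changes of *Retnla*, *Chil3* and *Mrc1* are therefore given as a description without p, and the p of the other genes are not independent support for the list.

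Bone marrow cells of wild-type (WT) C57BL/6 mice were cultured in medium with GM-CSF and IL-6, which steer them toward myeloid cells, and 12 libraries were made at day 5. Cells of 4 libraries received vehicle (DMSO), those of 4 received 10 µM indole-3-propionic acid (IPA), a tryptophan metabolite made by gut bacteria, and those of 4 received 50 µM IPA. All cells carried the wild-type genotype, the compound was renewed with the medium, and the methods describe the study's mice as females. The paper reports slightly lower viability of such cultures with the higher dose, and for that reason its RNA-seq analysis centred on the lower dose. The part of viability in the levels at the higher dose was not tested. Nothing says whether the libraries of a group came from separate mice or cultures, so p-values measure the spread between these libraries, which may be technical.

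In macrophages, IL-4 and IL-13 bind receptors that contain the IL-4 receptor α chain, and Janus kinases on these receptors phosphorylate STAT6. STAT6 then enters the nucleus and turns on genes of alternative activation, among them those of the secreted proteins RELMα (*Retnla*) and Ym1 (*Chil3*), the mannose receptor CD206 (*Mrc1*) and the galactose-type lectins of the CD301 family (*Mgl2* and *Clec10a*). The transcription factor IRF4 acts downstream of this pathway. Ym1 is also abundant in neutrophils and in immature myeloid cells of the bone marrow.

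Sequences upstream of the start site are shown for the 3 genes that gave the list its name and for *Mgl2*, the lectin with the larger difference at 50 µM. They are from RefSeq (GRCm38.p6), which held a promoter for 7 of the 8 genes, all but *Clec10a*. Each is written 5′ to 3′ on the strand of its gene, at chr16:48842359-48842550 (plus strand), chr3:106167565-106167814 (minus strand), chr2:14229164-14229391 (plus strand) and chr11:70130107-70130328 (plus strand), and stops before the earliest start annotated in GENCODE. This start lies 58 bases before that of RefSeq in *Retnla*, 22 in *Mrc1* and 28 in *Mgl2*, and the bases between them are not shown. Capitals mark letters that match a searched motif.
Retnla: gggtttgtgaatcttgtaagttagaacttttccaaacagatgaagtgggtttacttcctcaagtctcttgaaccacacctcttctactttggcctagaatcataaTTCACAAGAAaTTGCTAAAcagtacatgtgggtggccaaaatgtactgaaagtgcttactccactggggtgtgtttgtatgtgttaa
Chil3: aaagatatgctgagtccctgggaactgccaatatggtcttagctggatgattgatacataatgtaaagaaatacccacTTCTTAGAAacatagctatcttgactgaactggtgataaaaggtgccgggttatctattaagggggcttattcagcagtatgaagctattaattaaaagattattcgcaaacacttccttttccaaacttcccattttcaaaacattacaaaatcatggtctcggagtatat
Mrc1: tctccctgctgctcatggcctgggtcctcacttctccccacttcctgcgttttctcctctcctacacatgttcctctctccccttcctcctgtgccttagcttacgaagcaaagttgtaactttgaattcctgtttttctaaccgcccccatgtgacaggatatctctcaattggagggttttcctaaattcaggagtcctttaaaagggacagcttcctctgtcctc
Mgl2: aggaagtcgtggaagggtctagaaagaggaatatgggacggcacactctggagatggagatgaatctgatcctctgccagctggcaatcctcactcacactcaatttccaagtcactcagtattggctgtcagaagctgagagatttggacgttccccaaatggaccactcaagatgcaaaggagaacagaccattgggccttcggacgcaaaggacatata

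Motifs were searched on both strands in the 250 bases before the RefSeq start. The inverted triplets TTC and GAA with 4 bases between them, the spacing that STAT6 prefers, were present in 5.85% of 32851 promoters, and *Retnla* had it as TTCACAAGAA at 145 to 136 bases before that start, counted with the bases not shown. TTGCNNAA, a pattern of C/EBP sites, was present in 9.56%, and *Retnla* had it as TTGCTAAA at 134 to 127 bases before the start, next to the first match and without overlap. The same triplets with 3 bases between them (TTCNNNGAA), the spacing of most other STAT proteins, were present in 7.02%, and *Chil3* had it as TTCTTAGAA at 172 to 164 bases before the start. None of these patterns was found in the windows of *Mrc1*, *Mgl2*, *Irf4*, *Stat6* and *Il4ra*. TGAGTCA, an AP-1 site (4.46% of promoters), and the composite site of ETS and IRF factors (0.594%) were found in none of the 7 windows. A match is a description of the letters only.

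Expression is given as CPM, counts scaled to a common library size by TMM over the 12 libraries, which held between 20451312 and 28038612 counted reads each. Fold changes and p are from edgeR's quasi-likelihood test on the counts of the 8 libraries compared, adjusted by Benjamini-Hochberg over the 14894 genes, and a gene was called at an adjusted p under 0.05. At 10 µM, 5 of the 8 genes were called against vehicle, where 0.410% of all genes were called: *Retnla*, *Mrc1*, *Mgl2* and *Clec10a* were higher (background 0.329% higher) and *Chil3* was lower (background 0.0806% lower). At 50 µM, 6 were called against vehicle, where 13.5% of all genes were: *Retnla*, *Mgl2*, *Clec10a* and *Irf4* were higher (7.00%) and *Mrc1* and *Il4ra* were lower (6.50%). The same 4 were called higher (7.52%) and the same 2 lower (7.85%) at 50 µM against 10 µM, where 15.4% of all genes were called. In 6 genes the libraries did not overlap between 10 µM and vehicle, 5 higher and 1 lower, against 6.13% of all genes (3.57% higher and 2.56% lower). This held for 4 higher and 2 lower at 50 µM against vehicle (20.0%, with 9.45% higher and 10.5% lower) and for 3 higher and 3 lower between the doses (20.3%, with 9.43% higher and 10.9% lower). Nothing about the list is read from these counts, since its genes were chosen with them known. The median log2 fold change of the 8 genes was 0.25 at 10 µM, 0.23 at 50 µM and 0.26 between the doses, against -0.01, 0.01 and 0.01 over all genes tested. Both doses were compared with the same 4 vehicle libraries.

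Of the 8 fits at 10 µM that dropped 1 library, the threshold was passed by *Mgl2*, *Clec10a* and *Chil3* in 1, that with vehicle replicate 4 dropped, the library that differed most from its own group. *Mrc1* passed it in 2, those with vehicle replicate 3 or 4 dropped, and *Retnla* in 8. For *Retnla*, *Chil3* and *Mrc1* these numbers describe the values that chose them and are no test. With 10 µM replicate 2 dropped, where the number of all genes called went from 61 to 4, the adjusted p of edgeR's test was 0.197 for *Mgl2* and 0.182 for *Clec10a*. The log2 fold changes themselves stayed between 0.34 and 0.40 for *Mgl2*, between 0.44 and 0.55 for *Clec10a*, between -0.37 and -0.30 for *Chil3* and between 0.56 and 0.74 for *Mrc1*.

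**Figure D1:**
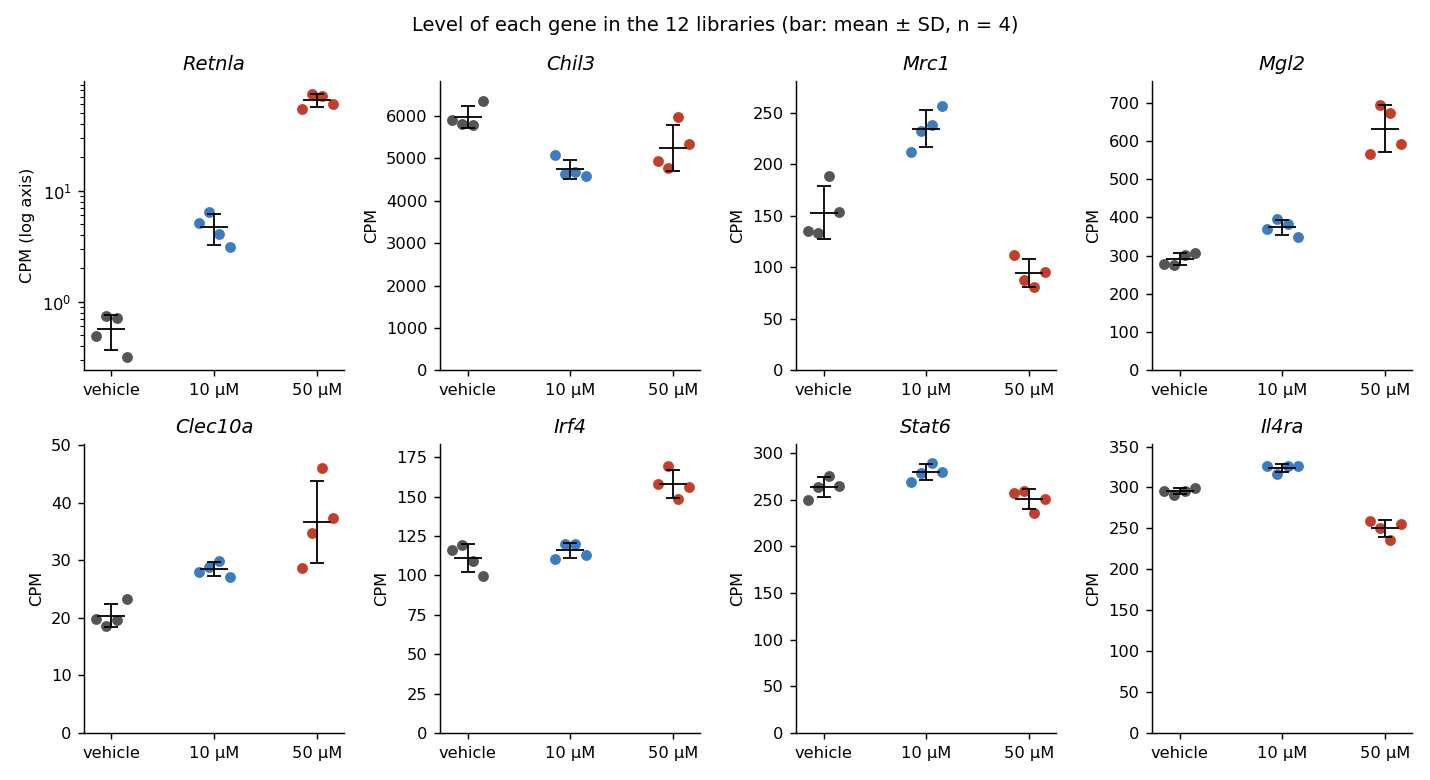
CPM of the 8 genes (y axis, logarithmic for *Retnla*, from 0 for the others) in each of the 12 libraries by group (x axis); points are libraries and bars the mean ± SD of 4. *Retnla* was separate in all 3 groups, from at most 0.742 CPM with vehicle to at least 55.1 at 50 µM, and *Mrc1* was highest at 10 µM and lowest at 50 µM.

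*Retnla* (ENSMUSG00000061100, GRCm38 chromosome 16, 48842551 to 48844461, plus strand), which encodes the small secreted protein RELMα, had the largest difference of the 8 genes. It was counted 13, 20, 16 and 8 times in the 4 vehicle libraries, 141, 134, 109 and 68 times at 10 µM, and 1128, 2012, 1476 and 1445 times at 50 µM. No library of one group lay within the range of another. Its mean was 0.567 ± 0.201 CPM (SD, n = 4) with vehicle, 4.70 ± 1.44 (SD, n = 4) at 10 µM and 65.3 ± 8.87 (SD, n = 4) at 50 µM. This was 8.24 times the vehicle level at 10 µM (log2 fold change 3.04, SE 0.32) and 115.1 times at 50 µM (6.85, SE 0.18), with a further 13.96-fold difference between the doses (3.80, SE 0.16). Leaving out 1 library gave log2 fold changes between 2.85 and 3.21 at 10 µM and between 6.65 and 7.01 at 50 µM. In bulk samples like these, more cells of a type and more RNA per cell cannot be told apart, and this holds for each gene below.

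The reads of *Retnla* can be told from those of its family. None of its 550 stretches of 50 bases occurs in *Retn*, *Retnlb* or *Retnlg*. *Retnlg*, a family member of bone marrow and neutrophils, was at 49.8 ± 19.0 CPM (SD, n = 4) with vehicle, 60.0 ± 11.0 (SD, n = 4) at 10 µM and 41.1 ± 5.60 (SD, n = 4) at 50 µM. It was not called at either dose against vehicle (log2 fold changes 0.27 and -0.27), and it fell between the doses (-0.55, SE 0.12, edgeR adjusted p = 0.00642). The ratio of *Retnla* to *Retnlg* counts was at most 0.0214 in a vehicle library, between 0.0459 and 0.127 at 10 µM and between 1.30 and 2.14 at 50 µM, so the order of the 2 genes was turned in every library at the higher dose.

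*Chil3* (ENSMUSG00000040809, chromosome 3, 106147554 to 106167564, minus strand) encodes Ym1, a chitinase-like lectin without known chitinase activity, and was the most abundant of the 8 genes. It was at 5914, 5805, 5801 and 6350 CPM in the vehicle libraries, at 5082, 4644, 4673 and 4582 CPM at 10 µM, and at 4931, 4769, 5980 and 5336 CPM at 50 µM. All libraries with 10 µM were below all vehicle libraries, whereas replicate 3 of the 50 µM group lay within the vehicle range. The means were 5968 ± 260.4 (SD, n = 4), 4745 ± 227.7 (SD, n = 4) and 5254 ± 539.5 CPM (SD, n = 4). The log2 fold change was -0.33 (SE 0.06) at 10 µM, -0.18 (SE 0.08) at 50 µM and 0.15 (SE 0.07) between the doses. With 1 library dropped it stayed between -0.37 and -0.30 at 10 µM and between -0.25 and -0.14 at 50 µM.

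Of the 1536 stretches of 50 bases in *Chil3*, 17.9% also occur in its neighbour *Chil4* (Ym2), so reads of these parts cannot be assigned to one of the pair. *Chil4* was listed with only 9 to 27 counts per library, and the counts of *Chil3* were at least 5200 times as high. *Chil1*, which encodes another chitinase-like protein and shares no such stretch, was at 200.8 CPM at 10 µM and 218.9 CPM with vehicle and was not called (log2 fold change -0.12, SE 0.06, edgeR adjusted p = 0.64). The summed level of 12 neutrophil markers was between 22990 and 32100 CPM with vehicle, between 21040 and 24140 at 10 µM and between 16280 and 22330 at 50 µM. Its part in the levels of *Chil3* was not tested.

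*Mrc1* (ENSMUSG00000026712, chromosome 2, 14229392 to 14332057, plus strand), which encodes the mannose receptor CD206, an endocytic lectin, was higher than vehicle at 10 µM and lower at 50 µM. Its level was 135.5, 133.1, 188.6 and 153.8 CPM in the vehicle libraries, 211.8, 231.9, 238.2 and 255.9 CPM at 10 µM, and 112.1, 87.99, 80.54 and 95.27 CPM at 50 µM. The 3 groups did not overlap, and replicate 3 was the highest of the vehicle libraries. The means were 152.7 ± 25.6 (SD, n = 4), 234.5 ± 18.2 (SD, n = 4) and 94.0 ± 13.5 CPM (SD, n = 4). Its log2 fold change was 0.62 (SE 0.11) at 10 µM, -0.69 (SE 0.12) at 50 µM and -1.32 (SE 0.09) between the doses. It stayed between 0.56 and 0.74, between -0.80 and -0.58, and between -1.41 and -1.25 with 1 library dropped.

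The other receptors of this family share no stretch of 50 bases with *Mrc1*, and the 2 of 3 that were tested were not called at 10 µM. *Ly75* (DEC-205), an endocytic receptor of dendritic cells, was at 35.8 CPM with vehicle, 34.4 at 10 µM and 25.9 at 50 µM, and fell at 50 µM against vehicle (log2 fold change -0.46, SE 0.10, edgeR adjusted p = 0.00758). *Mrc2*, a collagen receptor, was near 1 CPM and was called lower at 50 µM (-1.30, SE 0.38, adjusted p = 0.0381), a call that passed in 2 of 8 fits with 1 library dropped, with an adjusted p of 0.100 with 50 µM replicate 2 dropped. The summed level of 6 monocyte markers was between 2687 and 3423 CPM with vehicle, between 3837 and 4923 at 10 µM and between 2417 and 3120 at 50 µM, and that of 10 macrophage markers was between 1678 and 1855, between 1869 and 2156 and between 1682 and 1816 CPM. Of the monocyte markers, only *Fn1* was called at 10 µM, from 1450 to 2552 CPM, and it was at 1695 CPM at 50 µM. At that dose 3 others were called lower against vehicle (6.50% of all genes). The part of these cells in the levels of *Mrc1* was not tested.

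**Figure D2:**
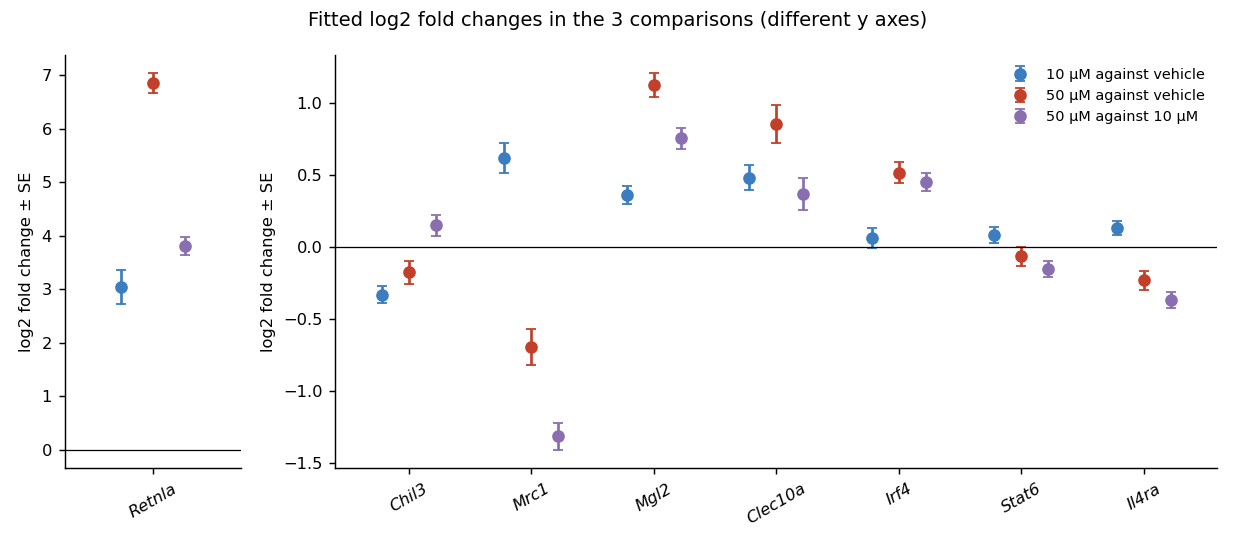
Log2 fold change ± SE (y axis, with a wider scale for *Retnla* at the left) of each gene (x axis) in the 3 comparisons, shown by color. *Mrc1* was at 0.62 for 10 µM and at -0.69 for 50 µM, and *Mgl2*, *Clec10a* and *Irf4* were above 0 in all 3 comparisons.

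*Mgl2* (ENSMUSG00000040950, chromosome 11, 70130329 to 70137550, plus strand) encodes CD301b, a lectin for galactose and N-acetylgalactosamine on macrophages and dendritic cells, and rose at both doses. It was at 278.9, 275.8, 302.5 and 307.7 CPM in the vehicle libraries, at 370.3, 395.3, 382.3 and 349.3 CPM at 10 µM, and at 566.6, 692.7, 674.2 and 592.1 CPM at 50 µM. The 3 groups did not overlap and stood in the order of the dose. The log2 fold change was 0.36 (SE 0.06, edgeR adjusted p = 0.0385) at 10 µM, 1.12 (SE 0.08, adjusted p = 3.22e-06) at 50 µM and 0.76 (SE 0.07, adjusted p = 4.64e-06) between the doses. The differences at 50 µM passed in all fits that dropped 1 library.

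*Clec10a* (ENSMUSG00000000318, chromosome 11, 70156197 to 70170834, plus strand) encodes the related lectin CD301a and lies beside *Mgl2*. Its level was 19.89, 18.63, 19.66 and 23.32 CPM in the vehicle libraries, 27.95, 28.93, 29.86 and 27.14 CPM at 10 µM, and 28.76, 34.68, 46.05 and 37.31 CPM at 50 µM. Every library with IPA was above every vehicle library, but the doses overlapped through replicate 1 of the 50 µM group. Its log2 fold change was 0.48 (SE 0.09, edgeR adjusted p = 0.0394) at 10 µM and 0.86 (SE 0.13, adjusted p = 0.000873) at 50 µM. The difference between the doses (0.37, SE 0.11, adjusted p = 0.0387) passed in only 1 of the 8 fits that dropped 1 library, that with 50 µM replicate 1 dropped, and was not called by limma-voom (adjusted p = 0.0518). Its adjusted p was 0.102 with 50 µM replicate 3 dropped.

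The 2 lectin genes share 242 stretches of 50 bases, 13.5% of those of *Mgl2* and 8.63% of those of *Clec10a*, so part of the counts could be assigned to the wrong gene of the pair. *Mgl2* had 13.2 to 15.4 times the counts of *Clec10a* with vehicle, 12.8 to 13.7 times at 10 µM and 14.6 to 20.0 times at 50 µM. The counts thus changed in near proportion from vehicle to 10 µM. *Asgr2*, which encodes a subunit of the asialoglycoprotein receptor, a related galactose lectin, went the other way at 50 µM. It was at 51.1 ± 15.5 CPM (SD, n = 4) with vehicle, 72.6 ± 8.35 (SD, n = 4) at 10 µM and 24.8 ± 1.74 (SD, n = 4) at 50 µM, and fell against vehicle (log2 fold change -1.04, SE 0.17, edgeR adjusted p = 0.00161) and between the doses (-1.55, SE 0.09, adjusted p = 2.41e-08).

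*Il4ra* (ENSMUSG00000030748, chromosome 7, 125552120 to 125579474, plus strand), the α chain through which IL-4 and IL-13 signal, fell at 50 µM by a small amount. It was at 295.1, 290.8, 295.4 and 299.5 CPM in the vehicle libraries, at 326.1, 316.3, 326.2 and 326.6 CPM at 10 µM, and at 259.4, 250.1, 235.2 and 255.1 CPM at 50 µM. The 3 groups did not overlap, with 10 µM above vehicle and 50 µM below it. The log2 fold change of 0.13 (SE 0.05) at 10 µM did not pass (edgeR adjusted p = 0.441), that of -0.23 (SE 0.06) at 50 µM did (adjusted p = 0.0277), and that of -0.37 (SE 0.06) between the doses did as well (adjusted p = 0.000376). The call at 50 µM against vehicle was lost in 5 of 8 fits, those without replicate 1 or 3 of the vehicle group or replicate 2, 3 or 4 of the 50 µM group, with an adjusted p of up to 0.0845 (with vehicle replicate 3 dropped).

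*Stat6* (ENSMUSG00000002147, chromosome 10, 127642986 to 127660957, plus strand), the transcription factor that relays the IL-4 signal, was not called in any of the 3 comparisons. Its level was 249.1, 263.2, 275.7 and 265.0 CPM in the vehicle libraries, 269.2, 278.9, 289.7 and 280.0 CPM at 10 µM, and 257.2, 259.2, 236.0 and 250.6 CPM at 50 µM. Both doses overlapped vehicle, and all libraries at 50 µM were below those at 10 µM. The log2 fold change was 0.09 (SE 0.06, edgeR adjusted p = 0.767) at 10 µM, -0.06 (SE 0.07, adjusted p = 0.59) at 50 µM and -0.15 (SE 0.06, adjusted p = 0.0872) between the doses, where DESeq2 gave an adjusted p of 0.0405. These values are those of mRNA and hold no measurement of STAT6 phosphorylation.

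*Irf4* (ENSMUSG00000021356, chromosome 13, 30749226 to 30766976, plus strand), a transcription factor of alternatively activated macrophages, dendritic cells and lymphocytes, rose at 50 µM. It was at 115.9, 119.5, 108.9 and 99.81 CPM in the vehicle libraries, at 110.5, 119.7, 120.3 and 113.2 CPM at 10 µM, and at 158.1, 169.8, 148.7 and 156.0 CPM at 50 µM. The libraries at 10 µM overlapped those with vehicle, and all at 50 µM were above both. Its log2 fold change was 0.06 (SE 0.07, edgeR adjusted p = 0.894) at 10 µM, 0.52 (SE 0.08, adjusted p = 0.000638) at 50 µM and 0.45 (SE 0.06, adjusted p = 0.000167) between the doses. The summed level of 6 B cell markers, cells that also express *Irf4*, was between 19.1 and 27.2 CPM with vehicle, between 24.2 and 34.1 at 10 µM and between 37.9 and 60.9 at 50 µM, and 5 of the 6 were called higher at 50 µM against vehicle. Of 10 dendritic cell markers, 4 were called higher there and 1 lower, where 7.00% of all genes were called higher and 6.50% lower. *Batf3*, a transcription factor of dendritic cells, averaged 6.43 CPM with vehicle and 14.7 at 50 µM, *Zbtb46* 13.3 and 17.3, *Ccr7* 68.3 and 90.0 and *Clec9a* 0.816 and 2.08. These calls passed in 8, 3, 6 and 4 of the 8 fits that dropped 1 library, and the class II gene *H2-Ab1* was the lower one (646.8 and 476.0 CPM). The part of either cell type in the levels of *Irf4* and *Mgl2* was not tested.

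Counting could mix some genes that overlap on the genome, since its strand setting was not given in the sources used here. The exons of *Stat6* overlap those of *Nab2* on the opposite strand over 40 bases, and *Nab2* was between 21.4 and 30.6 CPM. Those of *Il4ra* overlap an antisense gene, *Gm44876*, over 571 bases, and its level was at most 0.146 CPM in any library. The exons of *Mrc1* share no base with *Mir511*, which lies in one of its introns, and *Retnla*, *Chil3*, *Mgl2*, *Clec10a* and *Irf4* overlap no other gene.

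Levels of different genes were set side by side as CPM per kb of exon. With vehicle, *Chil3* was at 3657 ± 159.6 CPM per kb (SD, n = 4), which ranked 6 of 14889 genes with a length. *Mgl2* followed at 139.1 ± 7.75 (SD, n = 4), *Stat6* at 59.8 ± 2.48 (SD, n = 4), *Il4ra* at 49.2 ± 0.594 (SD, n = 4), *Mrc1* at 24.0 ± 4.02 (SD, n = 4), *Irf4* at 22.7 ± 1.77 (SD, n = 4), *Clec10a* at 7.03 ± 0.704 (SD, n = 4) and *Retnla* at 0.947 ± 0.335 (SD, n = 4). *Mrc1* and *Irf4* did not differ beyond their spread. *Retnla* ranked 11238 with vehicle, 5642 at 10 µM and 459 at 50 µM, where its 108.9 ± 14.8 CPM per kb (SD, n = 4) placed it behind only *Chil3* and *Mgl2*. At 10 µM, *Retnla* (7.85 ± 2.41 CPM per kb, SD, n = 4) and *Clec10a* (9.82 ± 0.407, SD, n = 4) did not differ beyond their spread, nor at 50 µM did *Mrc1* (14.8 ± 2.12, SD, n = 4) and *Clec10a* (12.7 ± 2.48, SD, n = 4).

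**Figure D3:**
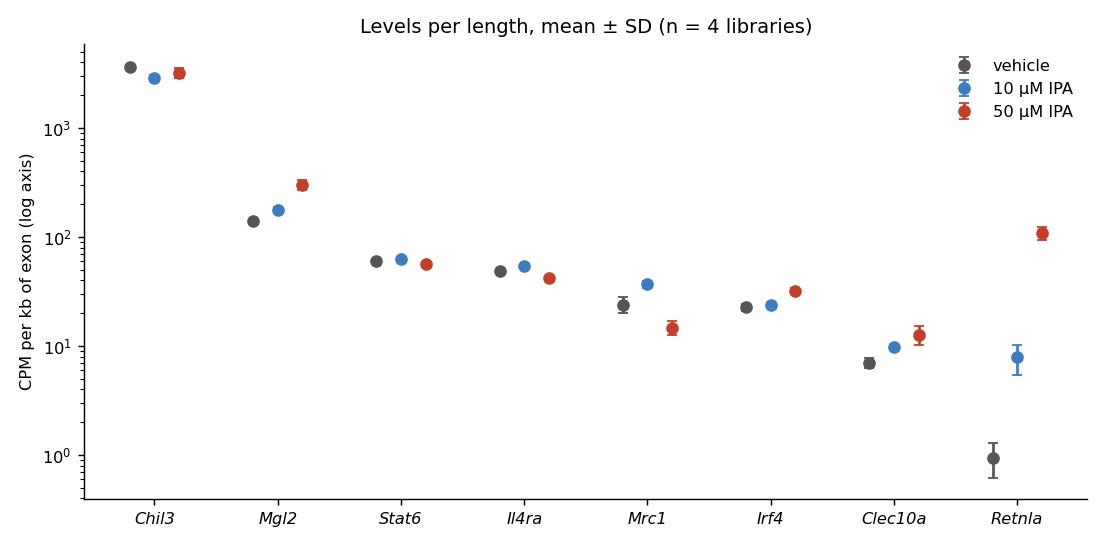
Level per length of each gene (x axis, in the order of the vehicle mean) as CPM per kb of exon (y axis, logarithmic), mean ± SD of 4 libraries, with the groups shown by color. *Retnla* went from the lowest of the 8 genes with vehicle (0.947) to a level below only *Chil3* and *Mgl2* at 50 µM (108.9).

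The other genes of the pathway were read from lists put together by known role, and are given by counts beside the background above. Of 12 genes of the IL-4 receptor pathway, 11 were tested. By edgeR's test none was called at 10 µM and none had an unadjusted p under 0.05, nor did DESeq2 or limma-voom call any. The 2 best expressed of the list at every dose, *Ptpn6* and *Jak1*, had log2 fold changes of -0.04 and -0.02 there. At 50 µM, *Il13ra1* (log2 fold change -0.37, edgeR adjusted p = 0.0224), which pairs with the IL-4 receptor α chain, *Jak3* (-0.34, adjusted p = 0.0217), a kinase of the type I receptor, and *Irs2* (-0.41, adjusted p = 0.024), an adaptor phosphorylated after IL-4, fell against vehicle. These calls passed in 5, 4 and 3 of the 8 fits that dropped 1 library, with an adjusted p of 0.0821, 0.0805 and 0.0739 with vehicle replicate 3 dropped. All 3 were also called lower at 50 µM against 10 µM (-0.49, -0.46 and -0.41), while *Cish*, a feedback inhibitor of cytokine receptors, was called higher (0.23, adjusted p = 0.0128).

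The cytokines of the pathway were scarce. *Il4* had between 6 and 32 counts in a library, with means of 0.690 ± 0.302 CPM (SD, n = 4) with vehicle, 0.642 ± 0.285 (SD, n = 4) at 10 µM and 0.825 ± 0.365 (SD, n = 4) at 50 µM. *Il13* had between 3 and 37 counts, with means of 0.288 ± 0.203 (SD, n = 4), 0.731 ± 0.516 (SD, n = 4) and 0.994 ± 0.437 CPM (SD, n = 4), and its libraries overlapped between vehicle and 50 µM. It was called higher at 50 µM (log2 fold change 1.81, SE 0.55, edgeR adjusted p = 0.0461), passed in 2 of 8 fits with 1 library dropped (adjusted p = 0.134 with 50 µM replicate 2 dropped) and was not called by limma-voom. *Il13ra2*, the decoy receptor of IL-13, had no count in any library. Basophil and mast cell markers, cells that can make IL-4, summed to between 428.7 and 515.4 CPM with vehicle, between 347.1 and 460.9 at 10 µM and between 469.2 and 576.2 at 50 µM over 8 genes. Of these, 1 was called higher and 1 lower at 50 µM against vehicle. The higher one was *Gata2*, with means of 46.1 CPM with vehicle and 101.5 at 50 µM (log2 fold change 1.15, edgeR adjusted p = 3e-06).

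Of 12 regulators of alternative activation, 1 was called higher and 0 lower at 10 µM by edgeR's test, 5 were higher and 0 lower at an unadjusted p under 0.05 (5.42% and 3.36% of all genes), and the median log2 fold change was 0.15. DESeq2 called 4 higher and 0 lower there, limma-voom 1 and 0. At 50 µM against vehicle, 3 rose and 3 fell. *Egr2* (0.63, edgeR adjusted p = 0.00083) and *Bhlhe40* (0.54, adjusted p = 0.000211), both transcription factors induced by IL-4 or by growth factors, rose in all 8 fits that dropped 1 library. *Klf4* (-0.59, adjusted p = 0.00203) and *Pparg* (-0.68, adjusted p = 0.00165), which cooperate with STAT6, and *Tfec* (-0.40, adjusted p = 0.0118) fell in all 8. *Klf4* had been at 35.2 ± 2.60 CPM (SD, n = 4) with vehicle and at 43.4 ± 1.10 (SD, n = 4) at 10 µM, and was at 23.2 ± 3.11 (SD, n = 4) at 50 µM. At 50 µM genes of the list thus moved in both directions, with a median of 0.09.

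Of 22 other markers of alternative activation, 4 were called higher at 10 µM, 14 had an unadjusted p under 0.05 and were higher (5.42% of all genes), and none was lower at either level by edgeR's test. DESeq2 called 7 higher (1.46% of all genes), limma-voom 5 (0.336%), and neither called any lower. *Ccl24*, the chemokine eotaxin-2, was at 1.31 ± 0.169 CPM (SD, n = 4) with vehicle, 4.69 ± 1.08 (SD, n = 4) at 10 µM and 13.1 ± 5.94 (SD, n = 4) at 50 µM, and rose in all 3 comparisons (log2 fold changes 1.83, 3.31 and 1.48). *Slc7a2* (0.80), a transporter of arginine, and the scavenger receptor *Cd36* (0.68) were also called at 10 µM. These 3 calls were lost with 10 µM replicate 2 dropped (edgeR adjusted p between 0.0562 and 0.197), *Ccl24* in that fit only and *Slc7a2* and *Cd36* in 6 of 8.

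At 50 µM, 8 of the 22 rose against vehicle and 3 fell. Beside *Ccl24*, the chemokines *Ccl22* (0.86, edgeR adjusted p = 0.000261) and *Ccl17* (0.66, adjusted p = 0.00192), the lipoxygenase *Alox15* (1.29, adjusted p = 0.000252), the signal inhibitor *Socs2* (0.78, adjusted p = 4.5e-05), the IL-1 antagonist *Il1rn* (0.50, adjusted p = 0.000882) and the inhibitory receptor *Cd200r1* (0.44, adjusted p = 0.00284) rose. The scavenger receptor *Cd163* (-1.25, adjusted p = 0.00371), the coagulation factor *F13a1* (-1.93, adjusted p = 0.00357), which is also on the monocyte list, and the chemokine *Ccl8* (-1.85, adjusted p = 0.037) fell, the last in 4 of 8 fits (adjusted p = 0.146 with vehicle replicate 3 dropped). The list as a whole had a median of 0.28 at 10 µM and 0.17 at 50 µM. Against 10 µM, 5 of the list were higher at 50 µM and 9 were lower, among them *Slc7a2* (-1.21), *Igf1* (-0.80) and *Cd36* (-0.38), and the median was -0.22.

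Of 20 genes of classical activation, 17 were tested. None was called at 10 µM by edgeR, DESeq2 or limma-voom, and 1 higher and 2 lower had an unadjusted p under 0.05 in edgeR's test, where 5.42% of all genes were higher and 3.36% lower. At 50 µM, 3 rose, namely *Cd38* (log2 fold change 0.63, edgeR adjusted p = 0.000183), the transcription factor *Irf5* (0.56, adjusted p = 0.000285) and the costimulatory ligand *Cd80* (0.40, adjusted p = 0.0403, in 3 of 8 fits, 0.128 with 50 µM replicate 2 dropped). The enzymes *Nos2* (-2.50, adjusted p = 0.00705) and *Ptgs2* (-1.10, adjusted p = 0.000217) and the cytokine *Il1b* (-0.87, adjusted p = 0.000448) fell. *Nos2*, which makes nitric oxide, varied widely, from 6.73 to 44.5 CPM with vehicle, from 27.6 to 72.8 at 10 µM and from 1.68 to 5.96 at 50 µM. *Tnf* and *Irf1* were also called higher at 50 µM against 10 µM (0.68 and 0.39).

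**Figure D4:**
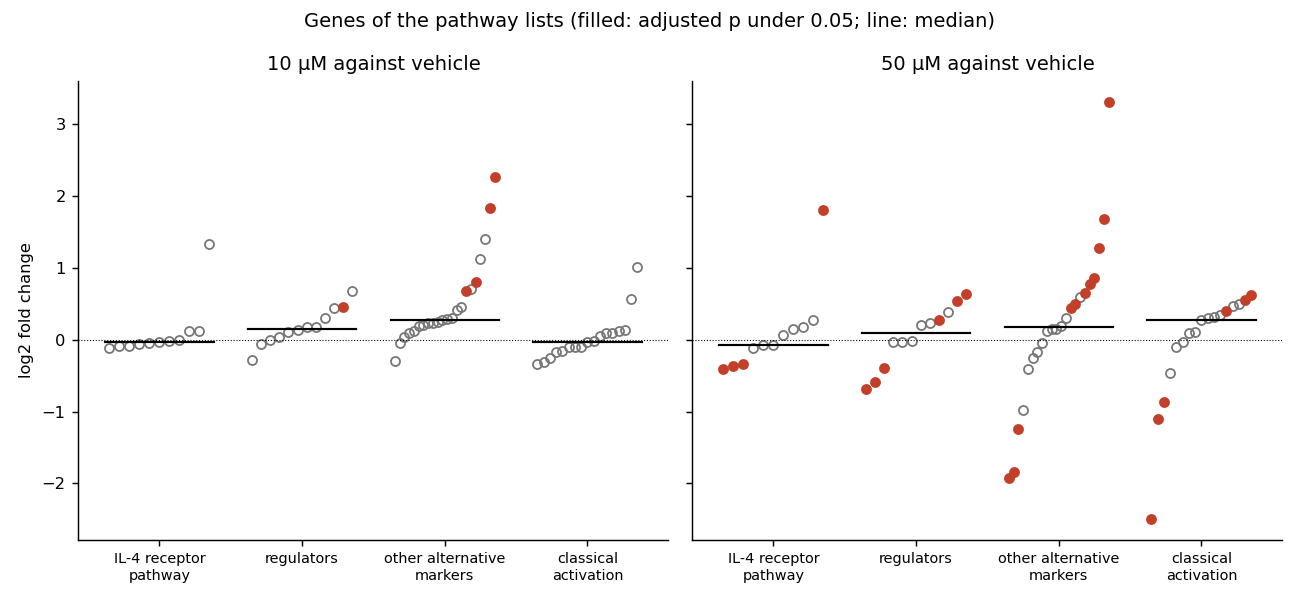
Log2 fold change (y axis) of each tested gene of the 4 pathway lists (x axis) at 10 µM and at 50 µM against vehicle; filled points passed an adjusted p of 0.05, open points did not, and lines are medians. At 10 µM the called points were all above 0, and at 50 µM called points lay on both sides of 0 in each list.

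**Figure D5:**
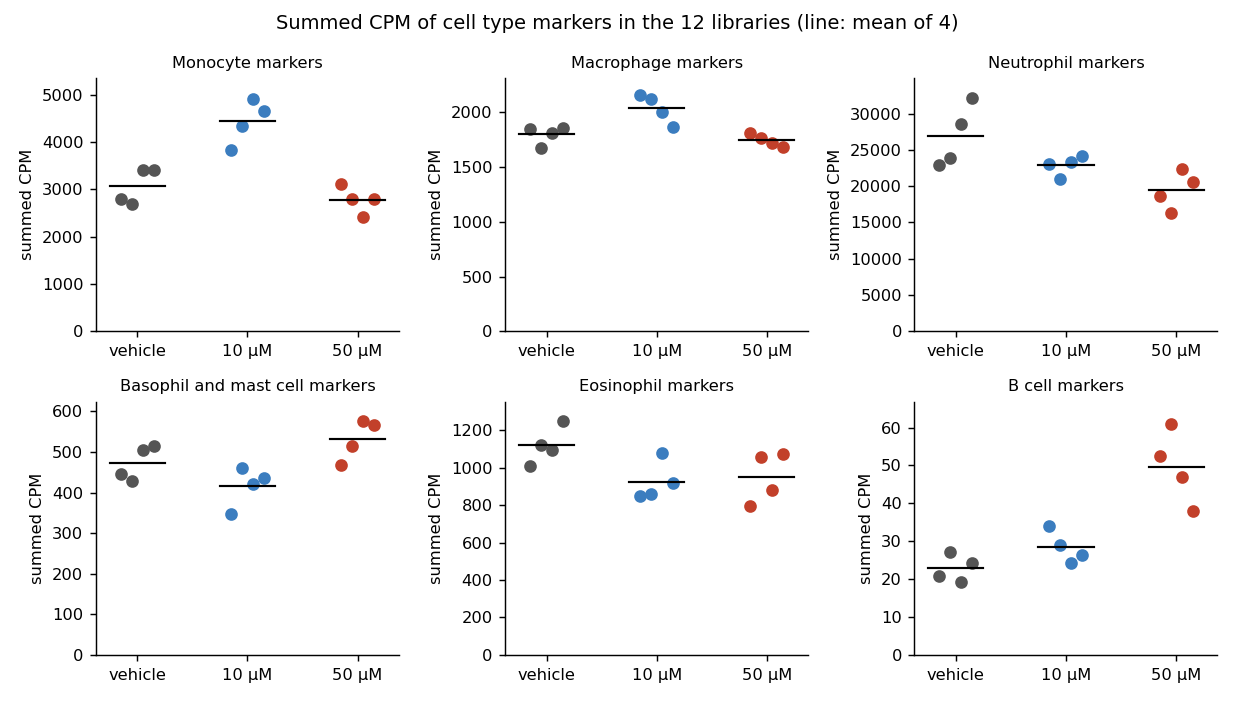
Summed CPM (y axis, from 0) of 6 lists of cell type markers in each of the 12 libraries by group (x axis); points are libraries and lines the mean of 4. The sum of monocyte markers was highest at 10 µM (between 3837 and 4923) and that of neutrophil markers lowest at 50 µM (between 16280 and 22330). *Fn1* was the largest part of the monocyte sum, with means of 1450 CPM with vehicle and 2552 at 10 µM. *Ly6c2* was the 1 of 6 monocyte markers with a lower mean at 10 µM (580.4 and 534.3 CPM).

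Marker genes of several cell types were present in all groups, and no gene of 8 lists was without reads. Against vehicle at 50 µM, 8 of 12 neutrophil markers and 3 of 6 monocyte markers were called lower and none higher. *Adgre1* (F4/80) was the 1 of 10 macrophage markers called higher, with *Csf1r* and *Fcgr1* lower. Of all genes, 6.50% were called lower and 7.00% higher there. At 10 µM, *Fn1* of the monocyte list (log2 fold change 0.82) and *C1qb* of the macrophage list (0.44) were called higher (0.329% of all genes). These calls passed in 6 and 2 of the 8 fits that dropped 1 library. The 10 dendritic cell markers summed to between 3646 and 4330 CPM with vehicle, between 3853 and 4542 at 10 µM and between 3356 and 3947 at 50 µM, and their median log2 fold change was 0.28 at 50 µM. T cell and innate lymphoid cell markers summed to between 85.5 and 109.5 CPM with vehicle, between 111.1 and 116.6 at 10 µM and between 79.1 and 88.2 at 50 µM. None of the 6 that were tested was called against vehicle at either dose. Eosinophil markers, cells that also express alternative activation genes, summed to between 1008 and 1251 CPM with vehicle, between 848 and 1077 at 10 µM and between 795.5 and 1071 at 50 µM. Of these 5 genes, the scarce *Ccr3* was called higher at 50 µM against vehicle and none lower. It averaged 0.741 CPM with vehicle and 2.25 at 50 µM (log2 fold change 1.61, edgeR adjusted p = 0.00412). The part of these changes in the levels of the 8 genes was not tested.

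The genes whose log2 CPM was most like that of a named gene over the 12 libraries were sought among the 12606 genes that averaged 1 CPM or more. The libraries share the groups, the normalization and their depth between the genes, so the correlations are descriptions. *Retnla* was followed most closely by *Lpl*, lipoprotein lipase (Pearson's r = 0.99), *Fgfr1* (0.986), *Ltbp3* (0.981), *Nek6* (0.98) and *Rassf8* (0.978). *Lpl* was at 1523 CPM with vehicle, 2047 at 10 µM and 2900 at 50 µM, and *Fgfr1*, a receptor of fibroblast growth factors, at 7.48, 14.9 and 32.9 CPM, so their ranges were far narrower than that of *Retnla*. For *Chil3* these genes were *Mapk13* (0.926), *Lcn2* (0.919), *Limd2* (0.887), *Gpr146* (0.862) and *Stfa2l1* (0.86), and *Lcn2*, a protein of neutrophil granules and on the neutrophil list, was at 2431, 1924 and 2129 CPM. For *Mrc1* they were *Rhoq* (0.981), *Fam129b* (0.976), *Clmp* (0.97), *Tnfrsf23* (0.969) and *Prune2* (0.968), each with its highest mean at 10 µM and its lowest at 50 µM, as in *Prune2* with 67.3, 83.2 and 46.7 CPM.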

How the data were processed

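RNA of the 12 samples was sequenced as stranded mRNA libraries. The values are raw counts per gene, deposited by the authors without normalization, from reads aligned to GRCm38 (mm10). The submitters' processing notes name HISAT2 2.2.1, featureCounts 2.0.1, R 4.3.0 and DESeq2 1.40.2. The strand setting of the counting is not given in the sources used here. One 10 µM library carries the title of another (replicates 3 and 2), and was numbered by its library name. No library was a copy of another.

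Tests covered 14894 genes, those above 0.5 CPM in 2 or more libraries, and used edgeR 4.0.16 (TMM, glmQLFit, glmQLFTest; R 4.3.3), on the 8 libraries of each comparison and without a block. SE is the absolute log2 fold change divided by the square root of F. Low counts limit precision, and *Retnla* had 8 to 20 counts per vehicle library. Scripts were tested on simulated counts. The genes and lists were chosen with earlier results of these data known. Named genes are the 8, their paralogs, list genes past the threshold or best expressed, and the 5 most correlated with *Retnla*, *Chil3* and *Mrc1* (log2 CPM, prior count 2). Some genes are counted in their lists but are not reported here by name. Gene positions and exon lengths are those of GENCODE M21 on GRCm38. Alternatives were DESeq2 1.42.0, limma-voom (limma 3.58.1), DESeq2's size factors, no filter, a mean of at least 10 counts, all 12 libraries, a replicate block and leaving out each library.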

Additional observations from a re-analysis of the deposited data

Results flagged for a closer look

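*Mrc1* was above vehicle in every library at 10 µM (log2 fold change 0.62) and below it in every library at 50 µM (-0.69). *Il4ra* showed the same pattern with smaller differences (0.13 and -0.23), and the first of these did not pass edgeR's test. Both were measured against the same 4 vehicle libraries. Their difference is the comparison of 50 µM with 10 µM, which gave -1.32 for *Mrc1* and -0.37 for *Il4ra* (edgeR adjusted p = 0.000376).

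In the 10 µM group, replicate 2 stood apart from the other libraries in *Il4ra* (316.3 CPM, the others between 326.1 and 326.6). It was the 1 library to do so among 24 groups of 4 values (8 genes in 3 groups), where chance gives about 1 in 20 such groups.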

How the results depend on the processing

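Over 24 fold changes of the 8 genes and 360 alternative values, 311 kept their direction and side of the threshold, 47 lost the call, 2 gained it and none changed sign. At 10 µM, 61 genes were called, 250 by DESeq2, 150 without a filter, 118 with all 12 libraries in the fit and 3 with the replicate block. Of 15 alternatives there, the call was lost in 9 for *Chil3*, 9 for *Clec10a*, 8 for *Mgl2*, 7 for *Mrc1* and 0 for *Retnla*. Of the pathway lists, 5 genes were called higher at 10 µM, 11 by DESeq2. The causes were not tested.

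Nothing says whether replicate numbers pair the libraries. The correlations of deviations within a number lay between -0.392 and 0.234. With 4 libraries in a group they cannot decide whether libraries of a number share a mouse or culture. With the replicate block, 1 of the 8 genes (*Retnla*) and 1 pathway gene were called at 10 µM, and the call of *Il4ra* at 50 µM against vehicle was lost (adjusted p = 0.0578). It changed no other call of the 8 genes.

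With 1 library left out, between 4 and 122 genes were called at 10 µM, with 1 to 5 of the 8, 0 to 8 pathway genes higher and 0 to 1 lower. At 50 µM against vehicle these ranges were 1247 (with vehicle replicate 3 dropped) to 2689 (with vehicle replicate 4 dropped), 5 to 6, 12 to 15 and 8 to 13. Between the doses they were 1604 to 2269, 5 to 6, 12 to 15 and 17 to 18.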

Other observations

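The families of *Irf4* and *Stat6* share no stretch of 50 bases with them. Of 8 other interferon regulatory factors, none was called at 10 µM by edgeR's test, and 1 had an unadjusted p under 0.05. At 50 µM against vehicle 3 rose and none fell, where 7.00% of all genes were called higher and 6.50% lower. *Irf5* averaged 257.5 ± 15.9 CPM (SD, n = 4) in the vehicle group and 376.3 ± 23.6 (SD, n = 4) at 50 µM (log2 fold change 0.56, edgeR adjusted p = 0.000285). *Irf8*, a factor of monocyte and dendritic cell development, averaged 86.6 ± 1.35 (SD, n = 4) and 113.9 ± 5.18 (SD, n = 4) in the same groups (log2 fold change 0.40, adjusted p = 0.00142). *Irf7*, a factor of the interferon response, was called only between the doses (-0.37, adjusted p = 0.0374), in 4 of 8 fits with 1 library dropped, with an adjusted p of 0.116 with 50 µM replicate 2 dropped.

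Of 6 other STAT genes, none was called at 10 µM by edgeR's test, and none had an unadjusted p under 0.05. At 50 µM, *Stat4* rose from 8.87 ± 1.14 to 14.6 ± 3.43 CPM (SD, n = 4), a log2 fold change of 0.73 (edgeR adjusted p = 0.00872), in all 8 fits with 1 library dropped. *Stat2* (0.47, adjusted p = 0.0233), which acts in the interferon response, rose and *Stat3* (-0.34, adjusted p = 0.0173), which relays IL-6, fell. These calls passed in 3 and 5 of the 8 fits. The adjusted p reached 0.0797 for *Stat2* with 50 µM replicate 4 dropped and 0.0566 for *Stat3* with vehicle replicate 1 dropped. Of all genes, 7.00% were called higher and 6.50% lower at 50 µM against vehicle.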
